A study of Homo sapiens with 6 samples.

Results

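The genes examined were 10 of the pyruvate and citric acid cycle, CS, SUCLG1, SUCLG2, SUCLA2, FH, MDH1, MDH2, DLAT, DLD and OGDH, out of 19862 protein-coding genes placed on the chromosomes. They were chosen by function, with earlier results of these data known, and located by their RefSeq coordinates on GRCh38. All 10 were found there. Chromatin occupancy around them had been mapped by CUT&Tag in HepG2 cells, a long-established line from a human liver carcinoma; the labels name no treatment, genotype change or control group. In CUT&Tag an antibody tethers a transposase, which cuts and tags the DNA beside the antibody's target. The groups were 3 antibodies with 2 replicate libraries each: H4K12la, which recognises histone H4 lactylated at lysine 12; HDAC1, a histone deacetylase; and ENO1, the glycolytic enzyme enolase 1. Whether the replicates are separate cultures is not stated in the labels, so their spread may be purely technical.

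The citric acid cycle oxidises acetyl groups in the mitochondrial matrix and passes the electrons to the respiratory chain. Pyruvate enters through the pyruvate dehydrogenase complex, in which DLAT is the acetyltransferase (E2) and DLD the dihydrolipoamide dehydrogenase (E3). Citrate synthase (CS) starts the cycle, OGDH is the first enzyme (E1) of the oxoglutarate dehydrogenase complex, which uses the same DLD, and succinate-CoA ligase consists of the alpha subunit SUCLG1 with either the GTP-forming beta subunit SUCLG2 or the ATP-forming beta subunit SUCLA2. FH hydrates fumarate to malate, MDH2 oxidises malate in the matrix, and MDH1 is the cytosolic malate dehydrogenase of the malate-aspartate shuttle. Histone lactylation is a mark formed from lactate, which is made from the pyruvate that does not enter this cycle.

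The 5 upstream sequences below are shown because their genes span the patterns described below. In both replicates the gene ends were occupied by both targets (DLD), by H4K12la (DLAT) or by HDAC1 (MDH1 and CS), and FH had no peak. MDH1 also had H4K12la in replicate 2 alone. Each is the 250 bases before the first RefSeq start on GRCh38.p14, written 5′ to 3′ along the gene. Capitals mark the bases inside the peaks of both replicates, of H4K12la for DLD and DLAT and of HDAC1 for MDH1 and CS. The runs lie at chr7:107890857-107891106 (plus strand, DLD), chr11:112025158-112025407 (plus, DLAT), chr2:63588713-63588962 (plus, MDH1), chr12:56300331-56300580 (minus, CS) and chr1:241519756-241520005 (minus, FH).
DLD: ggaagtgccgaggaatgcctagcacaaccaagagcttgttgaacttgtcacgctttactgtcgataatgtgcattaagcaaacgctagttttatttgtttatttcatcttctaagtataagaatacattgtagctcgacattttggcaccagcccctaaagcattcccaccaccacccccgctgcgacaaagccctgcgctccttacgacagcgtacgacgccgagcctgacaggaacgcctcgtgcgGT
DLAT: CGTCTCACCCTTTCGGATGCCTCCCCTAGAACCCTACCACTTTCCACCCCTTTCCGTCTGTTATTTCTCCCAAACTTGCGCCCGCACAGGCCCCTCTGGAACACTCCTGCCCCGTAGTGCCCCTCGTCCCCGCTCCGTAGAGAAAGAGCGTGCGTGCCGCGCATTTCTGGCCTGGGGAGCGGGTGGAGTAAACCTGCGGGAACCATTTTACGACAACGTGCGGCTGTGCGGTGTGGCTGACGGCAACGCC
MDH1: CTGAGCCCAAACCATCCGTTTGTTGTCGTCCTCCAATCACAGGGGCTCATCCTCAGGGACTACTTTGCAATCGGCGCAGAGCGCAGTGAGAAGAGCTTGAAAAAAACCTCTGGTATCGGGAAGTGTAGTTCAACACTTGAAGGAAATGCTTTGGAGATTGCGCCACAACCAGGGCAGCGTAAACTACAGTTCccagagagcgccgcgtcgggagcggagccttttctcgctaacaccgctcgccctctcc
CS: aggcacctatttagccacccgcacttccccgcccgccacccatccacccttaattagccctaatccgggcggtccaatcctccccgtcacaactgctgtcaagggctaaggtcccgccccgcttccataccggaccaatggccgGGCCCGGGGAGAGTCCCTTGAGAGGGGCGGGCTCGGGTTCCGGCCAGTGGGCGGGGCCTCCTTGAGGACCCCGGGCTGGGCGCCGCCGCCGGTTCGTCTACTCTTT
FH: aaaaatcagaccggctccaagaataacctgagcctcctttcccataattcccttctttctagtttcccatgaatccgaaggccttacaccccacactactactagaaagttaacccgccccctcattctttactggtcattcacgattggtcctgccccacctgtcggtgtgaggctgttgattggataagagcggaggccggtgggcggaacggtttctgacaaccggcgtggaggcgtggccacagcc
All 250 bases of the DLAT run lay inside both H4K12la peaks, and 192 bases of the MDH1 run and 106 of the CS run lay inside both HDAC1 peaks. The H4K12la peaks of DLD shared just the last 2 bases, since they extended into the gene. Both HDAC1 peaks of DLD began beyond its run, at 107891118 and 107891175.

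The peak lists held 5459 and 7568 peaks for H4K12la (replicates 1 and 2), 5727 and 4567 for HDAC1, and 1592 and 1189 for ENO1 on the 24 chromosomes. The fold enrichment given below is the authors' value for each peak, its summit signal over the background of its own library, and it is not scaled between libraries. A level is therefore compared between libraries only by its percentile among all protein-coding genes with a gene-end peak in the same library. Read depth is unknown, so the absence of a listed peak does not show absence of signal. Of 16 markers of hepatocytes and HepG2, HNF4A and FOXA1 carried H4K12la at a gene end in both replicates (10.5% of all protein-coding genes did). None, 0 of 16, carried HDAC1 in both (8.19% of all genes did). Of 16 markers of other cell types, 0 carried any target in both replicates. At such counts the lists do not check the cell type.

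H4K12la and HDAC1 peaks were found at the ends of 8 of the 10 genes (29.1% of all protein-coding genes had a gene-end peak in any library). In both replicates the targets shared 1 gene. A gene-end peak is one that overlaps the window of 1 kb on either side of an annotated gene end by at least 1 bp. In both replicates H4K12la occupied 4 genes, SUCLG2, SUCLA2, DLAT and DLD (40.0%, against 10.5% of all protein-coding genes). HDAC1 also occupied 4 genes in both replicates, CS, MDH1, DLD and OGDH (40.0%, against 8.19%). Because the genes were chosen with earlier results of these data known, these shares were not tested and are descriptions only. DLD was the 1 gene in both sets (3.18% of all genes carried both targets in this way). H4K12la in both replicates without HDAC1 in both was found at 3 genes (7.28% of all genes), and the reverse at another 3 (5.01%). Over the genome, 631 genes carried both targets in both replicates. Of 2077 genes with H4K12la in both replicates, 1446 did not have HDAC1 in both. Among those 1446, 504 (34.9%) had HDAC1 in 1 replicate. Of 1626 genes with HDAC1 in both replicates, 995 did not have H4K12la in both. Among those 995, 423 (42.5%) had H4K12la in 1 replicate. ENO1 had 0 peaks at these gene ends in either replicate. Of all genes, 0.166% and 0.101% carried ENO1 in replicates 1 and 2, 0.201% in at least 1 and 0.0655% in both, so 0 of 10 is near the background.

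By library, H4K12la peaks lay at 4 genes in replicate 1 and 7 in replicate 2 (13.5% and 19.5% of all genes), and HDAC1 peaks at 6 and 4 (14.8% and 10.1%). These counts overlap between the targets, so the number of genes occupied did not separate H4K12la from HDAC1. An exact permutation test of 2 libraries against 2 cannot pass 0.05, since its smallest two-sided p is 0.333, and no test was made. The difference in which genes were occupied rested partly on the demand for both replicates. With a peak in at least 1 replicate, H4K12la reached 7 genes (22.5% of all genes), HDAC1 6 (16.8%) and both targets 5 (10.2%), namely SUCLG2, SUCLA2, MDH1, DLD and OGDH. DLAT and MDH2 then had H4K12la without any gene-end peak of HDAC1, and CS had HDAC1 without any of H4K12la. All 5 gene-end peaks found in a single replicate came from the longer of that target's lists.

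**Figure D1:**
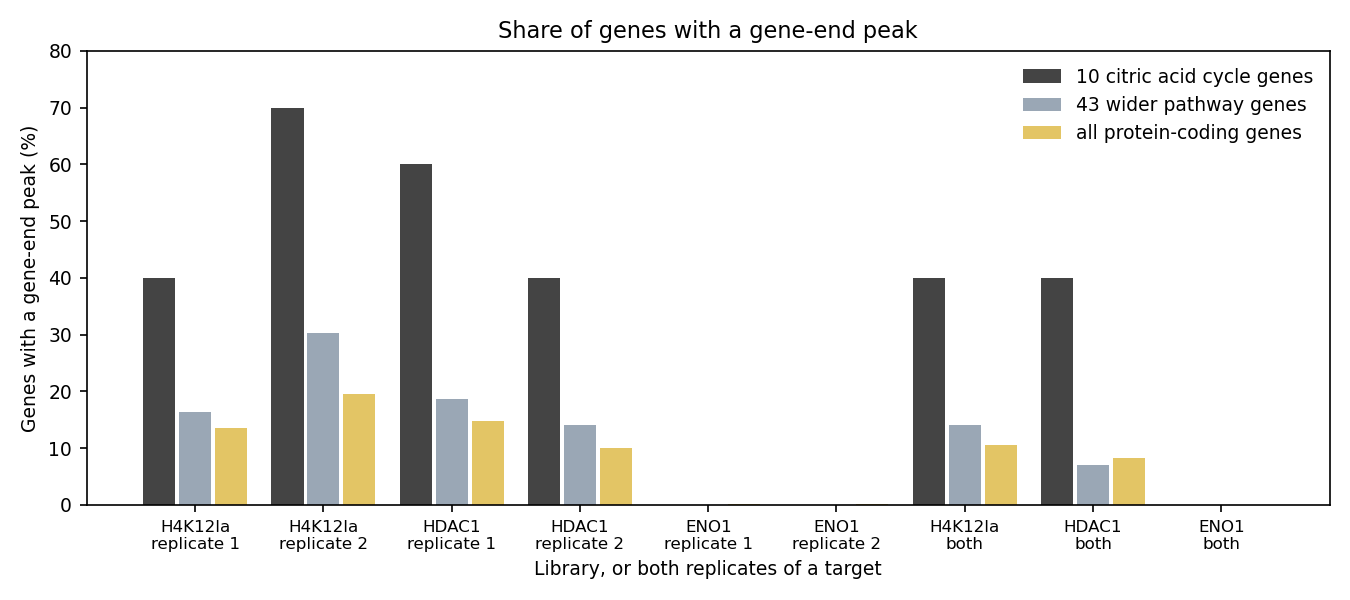
Share of genes with a gene-end peak (percent, y axis) in each library and in both replicates of a target (x axis), for the 10 citric acid cycle genes, 43 further genes of the pathway and all 19862 protein-coding genes. The 10 genes stand at 40.0% for both H4K12la and HDAC1 in both replicates, the 43 further genes at 14% and 6.98%, and ENO1 at 0 in both lists.

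DLAT, the E2 subunit of the pyruvate dehydrogenase complex (chromosome 11, 112025408 to 112064404, plus strand), carried H4K12la without HDAC1. Its H4K12la peak reached 5.66-fold in replicate 1 (112025061 to 112025476, -log10 q of 12.2) and 4.35-fold in replicate 2 (112024864 to 112025871, -log10 q of 6.88). These values stood at the 96.7 and 63.0 percentile of gene-end values in their libraries. The summits lay 79 and 339 bases upstream of the start, 260 bases apart, the widest separation of replicate summits among these genes. In replicate 1 DLAT had the highest H4K12la of the 10 genes, and in replicate 2 DLD, MDH1 and SUCLA2 stood above it.

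DLD, the E3 subunit shared by the pyruvate and oxoglutarate dehydrogenase complexes (chromosome 7, 107891107 to 107921198, plus strand), had a peak in each of the 4 libraries of H4K12la and HDAC1. H4K12la was 4.17-fold and 6.18-fold in replicates 1 and 2 (-log10 q of 6.89 and 18.9), and HDAC1 was 7.80-fold and 4.50-fold (-log10 q of 19.0 and 4.46). As percentiles these were 63.4 and 97.7 for H4K12la and 96.9 and 41.0 for HDAC1, so the ranges of the targets overlapped. The stronger library was replicate 2 for H4K12la and replicate 1 for HDAC1. All 4 summits lay downstream of the first start, by 161 and 258 bases for H4K12la and by 229 and 161 bases for HDAC1. The summits of H4K12la replicate 1 and HDAC1 replicate 2 fell on the same base, 107891268. RefSeq gives a second start for DLD at 107891183, which lies inside all 4 peaks. At a -log10 q of 5 or more DLD lost HDAC1 in replicate 2, and 0 of the 10 genes then carried both targets in both replicates.

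OGDH, the E1 subunit of the oxoglutarate dehydrogenase complex (chromosome 7, 44606627 to 44709066), carried HDAC1 in both replicates at its lower-coordinate end. HDAC1 was 5.84-fold (44606238 to 44607050, -log10 q of 14.2) and 7.22-fold (44606480 to 44606934, -log10 q of 17.1), at the 79.0 and 95.8 percentile. The summits were 92 and 18 bases from the annotated end. H4K12la had a peak there in replicate 2 alone, at 3.42-fold and a -log10 q of 3.70 (44607220 to 44607612), the 18.1 percentile. That peak did not touch the HDAC1 peaks, from which gaps of 170 and 286 bases separated it.

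CS, which condenses acetyl-CoA with oxaloacetate (chromosome 12, 56271699 to 56300330, minus strand), carried HDAC1 and no H4K12la at its ends. HDAC1 was 5.27-fold (56300072 to 56300436, -log10 q of 13.0) and 4.11-fold (56300118 to 56300480, -log10 q of 6.13), at the 65.6 and 27.0 percentile. The summits lay 19 bases downstream and 85 bases upstream of the start. Of the 4 genes with HDAC1 in both replicates, CS had the lowest value in each.

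Both beta subunits of succinate-CoA ligase carried H4K12la in both replicates, and the alpha subunit carried no peak. At SUCLG2, the GTP-forming subunit (chromosome 3, 67360460 to 67654612, minus strand), H4K12la was 4.79-fold and 3.40-fold (-log10 q of 9.01 and 4.43), the 84.1 and 17.3 percentile. At SUCLA2, the ATP-forming subunit (chromosome 13, 47942656 to 48001273, minus strand), H4K12la was 3.34-fold and 4.98-fold (-log10 q of 3.44 and 9.56), the 17.5 and 84.6 percentile. The replicates thus ranked the pair in opposite order. Neither gene kept its call in both replicates at a -log10 q of 5 or more or with equal numbers of strongest peaks, since the weaker peak was lost. HDAC1 had a peak at these genes in replicate 1 alone, 3.71-fold at SUCLG2 (-log10 q of 2.61, 14.6 percentile) and 4.96-fold at SUCLA2 (-log10 q of 7.16, 56.9 percentile). At SUCLG2 the summits of H4K12la replicate 2 and HDAC1 replicate 1 fell on the same base, 67654613, next to the start, and at SUCLA2 the 3 summits lay 129 to 181 bases upstream. The lncRNA genes SUCLG2-DT, whose start lies 85 bases from that of SUCLG2, and SUCLA2-AS1 lie under the same peaks. SUCLG1 (chromosome 2, 84423528 to 84459280, minus strand) had no peak of any library in its body or within 50 kb.

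The malate dehydrogenases differed in their occupancy. MDH1, the cytosolic enzyme (chromosome 2, 63588963 to 63607197, plus strand), had the highest HDAC1 of the 10 genes in replicate 1, at 8.19-fold (63588289 to 63588904, -log10 q of 21.4), and in replicate 2 came after OGDH, at 6.45-fold (63588457 to 63588977, -log10 q of 14.01). These were the 98.3 and 89.7 percentile of their libraries. H4K12la was 5.16-fold in replicate 2 (-log10 q of 8.34, 88.0 percentile) and had no peak there in replicate 1. The HDAC1 summits lay 385 and 307 bases upstream of the start, and the H4K12la summit 311 bases upstream, 4 bases from that of HDAC1 replicate 2. A start of WDPCP, a gene of ciliogenesis and planar cell polarity transcribed in the opposite direction, lies 486 bases upstream, so these summits fell between the starts of both genes. MDH2, the matrix enzyme (chromosome 7, 76048106 to 76067508, plus strand), had 1 gene-end peak, H4K12la in replicate 2 at 4.22-fold (76047734 to 76048707, -log10 q of 8.18, 58.0 percentile). Its summit lay 396 bases downstream of the start, and the peak also covered the start of STYXL1, 106 bases away on the other strand.

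FH, the fumarase gene (chromosome 1, 241497603 to 241519755, minus strand), had no peak of any library in its body or within 50 kb, like SUCLG1. Of all protein-coding genes, 34.9% had no peak over the same distance, against these 2 of 10 genes (20.0%).

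**Figure D2:**
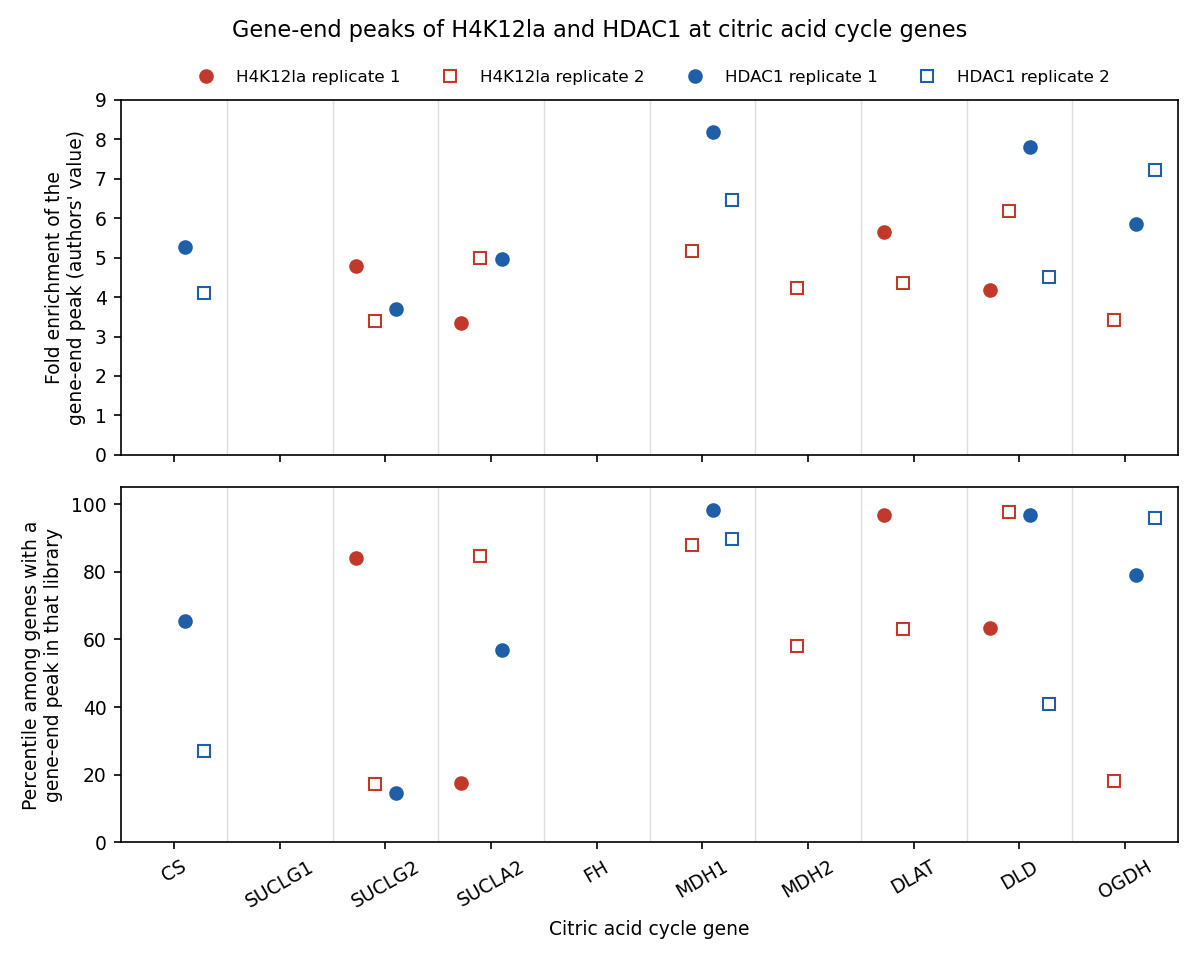
Gene-end peaks at the 10 citric acid cycle genes (x axis), as the authors' fold enrichment (upper panel) and as the percentile among all genes with a gene-end peak in the same library (lower panel); each point is the peak of 1 library, filled circles for replicate 1 and open squares for replicate 2. The highest points are HDAC1 at MDH1 in replicate 1 (8.19-fold) and at OGDH in replicate 2 (7.22-fold) for their libraries, DLD has all 4 points, and SUCLG1 and FH have none.

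Across these genes the replicate peaks of a target lay at the same place, while their strength differed. The 8 pairs of replicate peaks, 4 for each target, all overlapped, with summits 52 to 260 bases apart. At the 5 genes with peaks of both targets there were 12 pairs of an H4K12la and an HDAC1 peak, of which 10 overlapped, at SUCLG2, SUCLA2, MDH1 and DLD. Their summits lay 0 to 97 bases apart. Several of these pairs share a peak, so they are not independent. In 9 of the 10 overlapping pairs the H4K12la peak was the wider; gene-end peaks in general had median widths of 575 and 604 bases in the H4K12la libraries and 531 and 445.5 bases in the HDAC1 libraries. At the 10 genes, widths ran from 393 to 1119 bases for H4K12la and from 344 to 813 bases for HDAC1.

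The gene-end peaks lay at the transcription start wherever RefSeq gave one. All 18 peaks at the 7 genes with a listed start had their summit within 1 kb of it, from 385 bases upstream to 396 bases downstream. Of these summits 12 lay upstream and 6 downstream, the latter being the 4 of DLD, that of MDH2 and HDAC1 replicate 1 at CS.

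**Figure D3:**
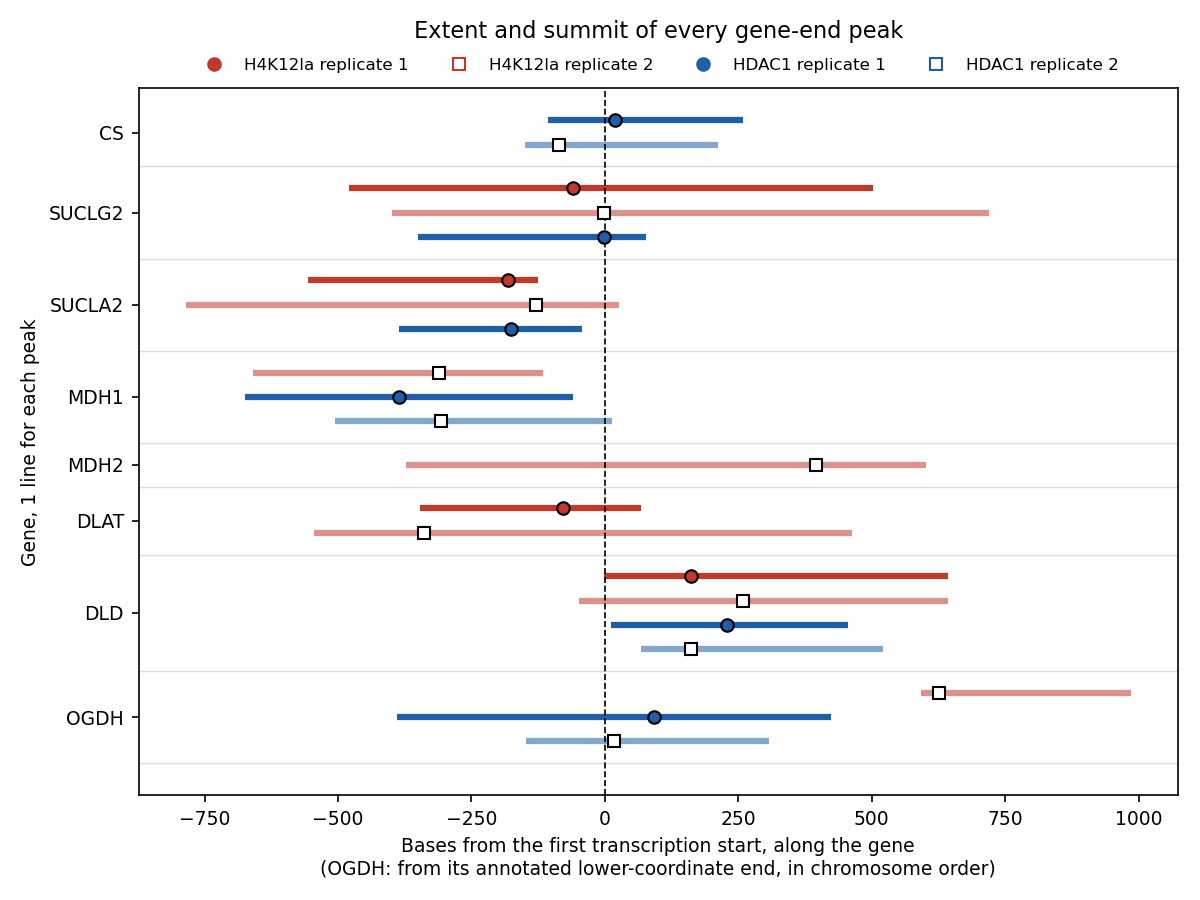
Extent (bars) and summit (symbols) of all 21 gene-end peaks, in bases from the first transcription start along the gene (x axis; for OGDH from its lower-coordinate end), with 1 line for each peak and genes on the y axis. At SUCLG2, SUCLA2, MDH1 and DLD the bars of both targets overlap, whereas at OGDH the H4K12la bar begins beyond the HDAC1 bars.

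Set within their libraries, the members' values ran from the 14.6 percentile (HDAC1 at SUCLG2, replicate 1) to the 98.3 percentile (HDAC1 at MDH1, replicate 1). For H4K12la, 3 of 4 peaks in replicate 1 and 5 of 7 in replicate 2 exceeded the median of gene-end peaks, 3.95-fold and 4.04-fold. For HDAC1, 5 of 6 peaks in replicate 1 and 2 of 4 in replicate 2 exceeded the medians of 4.69-fold and 4.73-fold. Support by the other replicate was found for 4 of the 7 genes with any H4K12la (57.1%, against 46.4% of all such genes) and for 4 of the 6 with any HDAC1 (66.7%, against 48.9%).

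**Figure D4:**
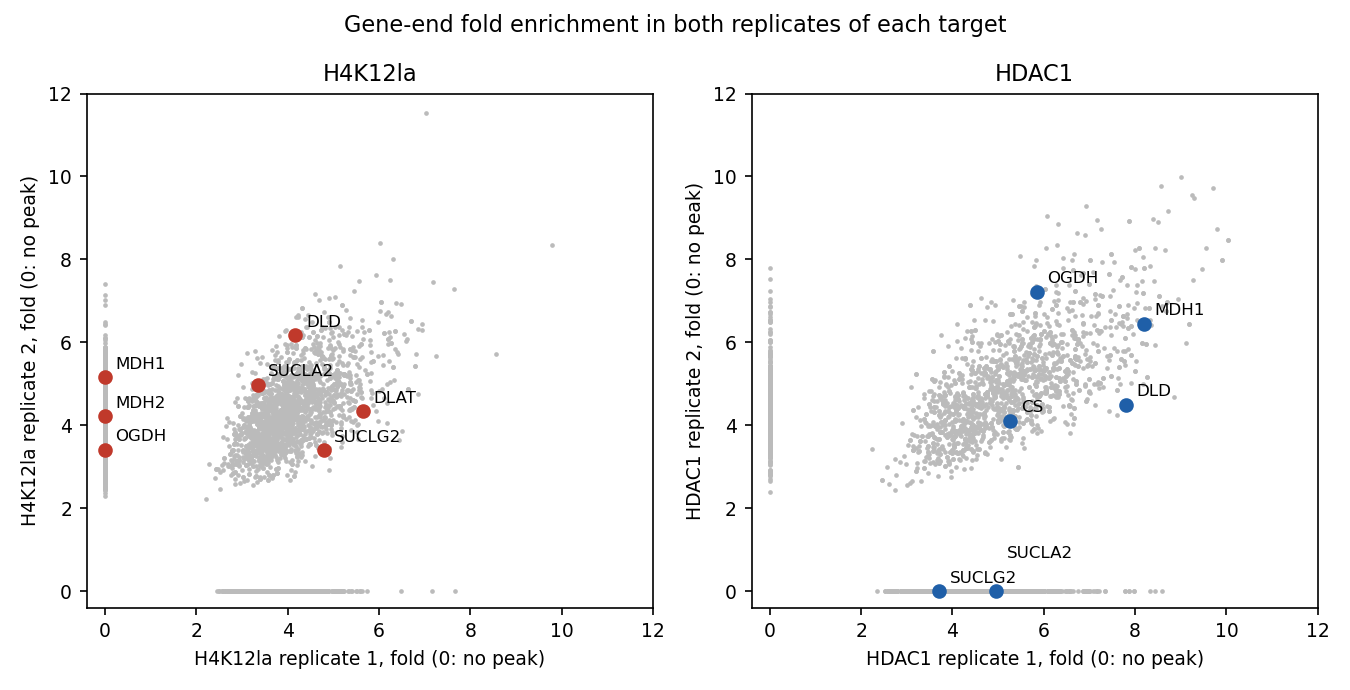
Fold enrichment at gene ends in replicate 1 (x axis) and replicate 2 (y axis) for H4K12la (left) and HDAC1 (right), with 0 for no peak; grey points are other protein-coding genes, of which 1 and 4 lie beyond the axis limit of 12, and coloured points are citric acid cycle genes. Points on an axis line have a peak in 1 replicate alone: MDH1, MDH2 and OGDH for H4K12la, SUCLG2 and SUCLA2 for HDAC1.

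DLAT for H4K12la and MDH1 for HDAC1 were set beside all other protein-coding genes, by the summed absolute difference in gene-end fold over the 6 libraries with no peak as 0. They were picked as the genes with the highest fold at the lower of their replicates, which sets unscaled libraries side by side; by percentile DLD, at 63.4, stood just above DLAT, at 63.0. Among the genes most like DLAT were WDFY3, an autophagy gene, at 5.40-fold and 4.40-fold of H4K12la (difference 0.309), and PAFAH2 (0.323). The genes most like MDH1 were RBX1, a subunit of ubiquitin ligases (difference 1.15), HNRNPD, an RNA-binding protein gene (1.20), and TMEM53 (1.60). RBX1 carried HDAC1 at 7.83-fold and 6.67-fold and H4K12la at 4.61-fold in replicate 2 alone. None of these 5 genes belonged to the wider pathway list.

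Away from the gene ends the peaks were less often replicated. A peak of the other replicate overlapped 16 of the 21 gene-end peaks, 0 of 4 in gene bodies and 4 of 15 within 50 kb. In gene bodies there were 4 H4K12la peaks, in 2 genes (10.9% of all genes had one in at least 1 replicate), and 0 of HDAC1 (6.82%) or ENO1 (1.4%), with 0 of the 4 overlapped by the other replicate. SUCLG2, 294 kb long, held H4K12la at 4.73-fold in replicate 1 (67540359 to 67540767) and, 7.28 kb from its start-side end, at 3.60-fold in replicate 2 (67647091 to 67647463). OGDH, 102 kb long, held H4K12la at 3.28-fold in replicate 1 (44622562 to 44623105) and at 3.58-fold in replicate 2 (44639810 to 44640238). Both genes thus had a body peak in each replicate, at different places (2 of 10 genes, 20.0%); 4.61% of all genes had H4K12la in the body in both replicates. A longer gene offers more room for a peak, and the median length was 32.9 kb for the 10 genes and 24.5 kb for all.

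Within 50 kb outside the genes there were 11 H4K12la peaks and 4 HDAC1 peaks, many of them at the ends of neighbouring genes. H4K12la was present in both replicates near 2 genes, CS and DLAT (20.0%, against 18.6% of all genes), and HDAC1 near 0 (against 17.7%). In at least 1 replicate H4K12la lay near 4 genes, CS, SUCLA2, MDH1 and DLAT (40.0%, against 38.5%). HDAC1 also lay near 4, CS, SUCLA2, DLAT and OGDH (40.0%, against 31.7%), and ENO1 near 0 (against 3.13%). The replicated peak beside DLAT, 22.4 kb from it at 4.01-fold and 3.71-fold of H4K12la, lay at the shared end of TIMM8B and SDHD, a succinate dehydrogenase subunit gene that is itself part of the cycle. The replicated peak beside CS, 32.8 and 33.2 kb away at 3.52-fold and 3.78-fold, lay at an end of PAN2, a deadenylase gene. H4K12la replicate 1 and HDAC1 replicate 1 shared a peak at CNPY2 near CS (3.39-fold and 4.79-fold). H4K12la replicate 2 and HDAC1 replicate 1 shared one at the ends of PIH1D2 and NKAPD1 near DLAT (4.21-fold and 5.16-fold). A further HDAC1 peak, 4.55-fold in replicate 1, lay at TMED4 near OGDH. Near MDH1, H4K12la replicate 2 had a peak of 5.41-fold inside WDPCP, 33.9 kb away. Single H4K12la peaks were also found at 4.38-fold in replicate 1 near CS, at the ends of NABP2 and SLC39A5, at 5.11-fold in replicate 2 near SUCLA2, and at 4.69-fold in replicate 2 near DLAT, inside DIXDC1.

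In both replicates the rest of the pathway was occupied about as often as other genes. Of 43 further genes of pyruvate entry, the cycle and its supply, H4K12la occupied 6 in both replicates (14%, against 10.5% of all genes), HDAC1 3 (6.98%, against 8.19%) and ENO1 0. With a peak in at least 1 replicate the shares were 32.6% for H4K12la (against 22.5%) and 25.6% for HDAC1 (against 16.8%), and 46.5% of the 43 genes had a gene-end peak in any library (against 29.1%), comparisons without a test. Together the 53 genes gave 10 with H4K12la (18.9%) and 7 with HDAC1 (13.2%). PDHX, the E3-binding subunit of the pyruvate dehydrogenase complex, carried both targets like DLD, H4K12la at 4.55-fold and 4.95-fold and HDAC1 at 6.62-fold and 6.31-fold. Its end lies 459 bases from that of APIP. Of the 5 genes of the pyruvate dehydrogenase complex, DLAT, DLD and PDHX thus held H4K12la in both replicates (against 10.5% of all genes). PDHA1 and PDHB, the genes of its E1 subunits, had no gene-end peak, like most genes (29.1% of all genes had one in any library). A difference between subunits was not tested.

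H4K12la in both replicates, with HDAC1 not in both, was also found at SDHD (4.01-fold and 3.71-fold), at MDH1B (4.74-fold and 6.31-fold), whose end lies 278 bases from that of FASTKD2, and at LIPT1, a lipoyltransferase gene (3.49-fold and 4.67-fold), whose end adjoins that of TSGA10. MPC1, a mitochondrial pyruvate carrier gene (3.33-fold and 4.04-fold), and PCK2, the mitochondrial phosphoenolpyruvate carboxykinase gene (2.94-fold and 3.03-fold), had an H4K12la peak in each replicate, but the replicates' peaks did not overlap each other. HDAC1 had a peak in replicate 1 alone at MDH1B (3.79-fold) and MPC1 (4.69-fold). HDAC1 in both replicates, with H4K12la not in both, was found at PC, the pyruvate carboxylase gene (5.55-fold and 6.48-fold), and at IDH1, the cytosolic isocitrate dehydrogenase gene (3.85-fold and 4.62-fold). At IDH1 the 3.85-fold peak of replicate 1 did not overlap that of replicate 2, and a 3.39-fold peak of replicate 1 did; H4K12la had a peak there in replicate 2 alone (3.45-fold). Of the 5 isocitrate dehydrogenase genes 1 had a gene-end peak in any library, and of the 7 pyruvate dehydrogenase kinase and phosphatase genes 2 did, against 29.1% of all genes.

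In the 300 bases around the start (250 before and 50 after), the 9 genes with a RefSeq promoter sequence resembled other promoters. Their median GC content was 62.0%, against 62.7% over 15842 protein-coding promoters, and they held a median of 23 CpG dinucleotides, against 22. FH and SUCLG1, the genes without any peak, had 15 and 16 CpGs, the fewest of the 9. These counts stood at the 36.4 and 38.2 percentile of all promoters. The 4 genes with H4K12la in both replicates had 23 to 28. MDH1, occupied by HDAC1, had 19. CS, with HDAC1 and no H4K12la at its ends, had 26, and MDH2, with H4K12la in replicate 2 alone, had 23. Promoters with a replicated H4K12la or HDAC1 peak had a median of 25 over the genome, and ran from 0 to 65 and from 0 to 69. These are descriptions of 9 genes without a test.

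Short motifs were searched on both strands of the same windows. ATTGG, the NF-Y box, was present in 6 of the 9 (36.4% of all promoters): CS, SUCLG1, SUCLA2, FH, MDH1 and DLD. GGGCGG, the SP1 box, was present in 4 (58.3%): CS, SUCLG2, SUCLA2 and FH. CCGGAAG, an ETS site, was present at MDH2 alone (14.2%). The NRF1 palindrome (1.77%), the YY1 core motif (1.33%) and TATAAA (9.75%) had 0 matches in these windows. In the printed runs, CS holds 5 SP1 boxes, those at bases 169 and 193 inside the HDAC1 peaks, and NF-Y boxes at bases 74 and 135. MDH1 holds an NF-Y box at base 33, inside the HDAC1 peaks. FH holds SP1 boxes at bases 115 and 205 and NF-Y boxes at bases 146 and 182 with no peak, so these letters were present with and without peaks. No motif searched overlapped another in the printed runs.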

How the data were processed

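CUT&Tag peak lists of 6 HepG2 libraries were used, grouped and numbered by their titles. The build was hg38, and FastQC, Bowtie2, MACS2 and deepTools had been run, per the submitters' processing notes; their versions and settings, and any control library, are not given in the sources used. The authors deposited 1 narrow peak list per library, and replicates were not pooled. In each deposited list the fold enrichment is a ratio over the peak caller's background, with the -log10 p and -log10 q values, a score derived from the -log10 q, and a summit. All listed q values were under 0.01, and the number of peaks limits the precision.

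Peaks on the 24 chromosomes were kept and placed by RefSeq genes of GRCh38.p14 (718 entries of other sequences carrying a chromosome's name left out), with starts from RefSeq promoter sequences (9 of the 10 genes matched). Overlaps were computed in Python 3.11.15 with pandas 2.3.3 and tested on simulated data. The genes and lists were chosen with earlier results of these data known, so no enrichment test was made; counts stand beside the share of all protein-coding genes. All 10 genes were named, as was each wider pathway gene occupied in both replicates, up to 12 for each target, each protein-coding gene sharing a member's peak, and the 3 genes most like the member of each target with the highest lower-of-replicates fold. Some genes and peaks that this selects are not reported here. Alternatives were windows of 500 bp and 2 kb, starts alone, a -log10 q of 5 or more, summits inside the window, the 4567 strongest peaks of each H4K12la and HDAC1 list, and either replicate.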

Additional observations from a re-analysis of the deposited data

How the results depend on the processing

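Among the 10 genes, the set called in both replicates was the same with windows of 500 bp and 2 kb and with summits inside the window. It was SUCLG2, SUCLA2, DLAT and DLD for H4K12la and CS, MDH1, DLD and OGDH for HDAC1. At transcription starts alone HDAC1 had 3 genes, since OGDH had no listed start. For H4K12la the count fell from 4 to 2 genes, DLAT and DLD, at a -log10 q of 5 or more. It was also 2, the same genes, with equal numbers of strongest peaks. The share of all genes fell from 10.5% to 6.11% and 7.72%, respectively. The count was 7 with a peak in at least 1 replicate (22.5% of all genes). It was 4 without H4K12la replicate 2 (13.5% of all genes) and 7 without replicate 1 (19.5%). HDAC1 had 3 genes at a -log10 q of 5 or more (6.31% of all genes), where DLD was lost and the targets then shared 0 genes. It had 4 without HDAC1 replicate 1 (10.1% of all genes) and 6 without replicate 2 (14.8%). Of the 43 further genes, H4K12la occupied 3 at a -log10 q of 5 or more (6.98%, against 6.11% of all genes). With a peak in at least 1 replicate it occupied 14 (32.6%, against 22.5%). It occupied 7 without H4K12la replicate 2 (16.3%, against 13.5%) and 13 without replicate 1 (30.2%, against 19.5%). With windows of 500 bp it occupied 4, without PCK2 and MPC1 (9.46% of all genes). With windows of 2 kb it occupied 7, with ACLY added (11.2% of all genes). With summits inside the window it lost PCK2. With equal numbers of strongest peaks it occupied 4 (7.72% of all genes). HDAC1 occupied 11 of them with a peak in at least 1 replicate (25.6%, against 16.8%) and 6 to 8 when a replicate was left out (6 without replicate 1, 8 without replicate 2). ENO1 stayed at 0 in both lists under all alternatives run. No paired analysis was possible because the counts come from peak lists without a test, and the replicate numbers of different targets are not stated to share a culture or batch. Read depth is unknown, which limits what an absent peak can show.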
